A study of Mus musculus with 4 samples.

Results

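The Zfp genes of the mouse are named for zinc finger proteins, most of which grip DNA with a row of small domains folded around a zinc ion. The genes described here are the numbered Zfp genes that E14 mouse embryonic stem cells expressed. They are the rows of the authors' deposited table whose name is Zfp followed by a number only and whose mean of the values in its 2 conditions was at least 5. Zfp36, Zfp42, Zfp143, Zfp281 and Zfp473 were left out. The rule took 142 of the 23922 genes in the table. The members were selected on their measured level, so the levels below are a description, and a gene could enter through a high value in only 1 condition.

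RNA came from E14 cells kept in medium with serum and leukemia inhibitory factor. Through a lipid reagent the cells received esiRNA, a mixture of many short silencing RNAs obtained by digesting a longer duplex. There were 2 libraries with esiRNA against Pnldc1, which encodes a deadenylase of the PARN family, and 2 with esiRNA against luciferase (Luc), a reporter that mouse cells lack. The RNA was total RNA without ribosomal RNA and without RNA under 200 nt, and the study asked which genes differ after silencing. In the authors' processing the libraries were merged into conditions q2 and q1, and the sources used here do not say which esiRNA either stands for. The differences therefore compare q2 with q1 and have no direction with respect to the silencing. There are no values of single libraries in the table, so no value has an SD. Replicate error enters only through the Cuffdiff test the authors ran, whose q-value is a p-value adjusted over all genes they tested. Separate cultures are not mentioned in the labels, so these p-values speak for the libraries, whose spread may be technical. In such bulk RNA, fewer cells of a type and less RNA per cell cannot be told apart.

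The targeted gene did not tell the conditions apart. Pnldc1 had 26.8 in q2 and 18.1 in q1 in the authors' deposited table, with q = 0.399. Depth was low. If the values are FPKM, as Cuffdiff gives by default, low values fall in steps worth 1 fragment, which put q2 at about 1420000 fragments and q1 at about 1210000. The stem cell label was borne out by 7 defining markers, whose lowest value was 149 for Sox2 in q1 in the authors' deposited table. Of 21 markers of fibroblasts, trophectoderm, extra-embryonic endoderm, neuroectoderm and mesoderm, 20 had a mean under 5 and 4 were listed at 0 in both conditions. The exception was Thy1, with 13.0 in q2 and 6.17 in q1. The 5 fibroblast markers summed to 13.0 in q2 and 6.72 in q1, and Col1a2 and Col3a1 were at 0 in both. Their part in the results was not tested.

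Zinc finger proteins of the C2H2 kind hold each zinc ion with a pair of cysteines and a pair of histidines, and the residues between them read the DNA bases. Many of these proteins in mammals also carry a KRAB box near the start, which binds TRIM28 (KAP1). TRIM28 then brings the histone methyltransferase SETDB1 and HP1 proteins and silences the chromatin around the site, and in embryonic stem cells this pathway is known for keeping retroelements silent and imprints in place. The family is large, its genes lie in clusters of related copies, and their transcripts tend to be poor in G and C.

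The coding stretch of the first finger is shown for members that carry the results: Zfp930 and Zfp706, which passed the authors' test, and the 4 most highly valued members with a finger that did not pass. Capitals mark the codons of the 2 cysteines and the 2 histidines, and the stretches are written 5′ to 3′ from GENCODE M21 transcripts of GRCm38.
Zfp930: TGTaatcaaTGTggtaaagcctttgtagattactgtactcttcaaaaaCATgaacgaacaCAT
Zfp706: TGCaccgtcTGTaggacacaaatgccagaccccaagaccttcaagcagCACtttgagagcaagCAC
Zfp207: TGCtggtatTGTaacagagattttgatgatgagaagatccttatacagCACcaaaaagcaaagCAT
Zfp57: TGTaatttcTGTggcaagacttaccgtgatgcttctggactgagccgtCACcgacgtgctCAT
Zfp106: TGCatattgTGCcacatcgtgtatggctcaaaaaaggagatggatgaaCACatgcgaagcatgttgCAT
Zfp428: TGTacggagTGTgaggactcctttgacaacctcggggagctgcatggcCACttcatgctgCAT

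The spacing between the cysteines is the same in all 6 stretches (2 residues), while the gap between the histidines is 3 residues in Zfp930, Zfp57 and Zfp428, 4 in Zfp706 and Zfp207 and 5 in Zfp106. By this pattern 129 of the 142 members encode 2 or more fingers in their representative transcript, 9 encode 1 and 4 encode none, with a median of 9 and a highest count of 33 in Zfp142 and Zfp462. The name therefore fits the proteins of most members. The 4 with no match in that transcript were Zfp259, Zfp330, Zfp365 and Zfp451. The transcript used for Zfp451 has 1677 coding bases of 11876, and counts in other transcripts are not given here. Zfp259 is annotated today as Zpr1, whose zinc fingers are of another kind. A KRAB-type box was found in 63 members and not in the other 79.

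Most of the expressed family sat at low levels. Of 334 numbered Zfp rows, 18 had no signal in either condition (both values 0) and 169 had a mean above 0 but under 5. Among the 142 members the mean of both values had a median of 12.1 and ran to 159, and 83 members reached 10, 37 reached 20, 9 reached 50 and 2 reached 100. The level threshold cut through a dense range of values. In the authors' deposited table Zfp444 (4.52 in q2 and 5.66 in q1) and Zfp395 (4.66 and 5.53) were just inside, and Zfp960 (3.31 in q2 and 6.58 in q1) and Zfp397 (4.40 and 5.47) just outside. Across the 142 genes the levels in the conditions were close, with a Pearson r of 0.91 between their log2 values, a description over genes that share the same libraries. The summed value was 2589 in q2 and 2748 in q1. The 8 highest were Zfp207, Zfp57, Zfp106, Zfp428, Zfp259, Zfp710, Zfp740 and Zfp219. Zfp740 had 57.6 in q2 and 52.8 in q1 in the authors' deposited table (q = 0.754).

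**Figure D1:**
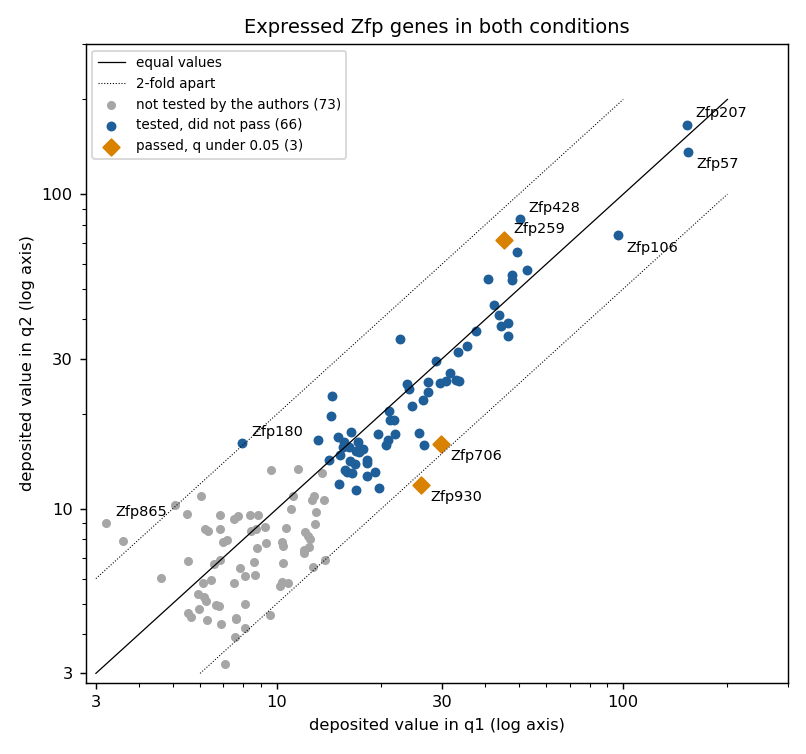
Deposited value of each of the 142 members in q2 (vertical, log axis) and q1 (horizontal, log axis), with points marked by the outcome of the authors' test. The 3 members that passed are Zfp259 above the line of equal values and Zfp706 and Zfp930 below it, and the 73 untested members fill the lower left.

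The authors' test covered 69 of the members and passed 3 of them, a share close to that of all tested genes. Zfp930 and Zfp706 were higher in q1 and Zfp259 was higher in q2. That is 4.35% of the tested members, and of all 5719 tested genes 4.25% passed in either direction, 2.31% as higher in q2 and 1.94% as higher in q1. By the unadjusted p at 0.05 the count was 12 members, 5 higher in q2 and 7 higher in q1, or 17.4% of those tested, against 18.8% of all tested genes (10.5% higher in q2 and 8.29% higher in q1). A q under 0.1 took in 4 members, Zfp180 being the fourth, against 7.36% of all tested genes, and a q under 0.01 took 0, against 1.87%. The remaining 73 members were left untested. Their mean values lay between 5.09 and 13.3, whereas the tested members lay between 12.1 and 159. Fewer members were tested (48.6%) than of all 8309 genes with a mean of at least 5 (68.8%).

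Zfp930, one of the KRAB zinc finger genes, had 11.9 in q2 and 26.1 in q1 in the authors' deposited table (q = 0.0343). On the log2 scale q2 over q1 came to -1.13, a 2.19-fold difference and the largest toward q1 among the tested members. The gene lies on the plus strand of chromosome 8 from 69209038 to 69230536 (GRCm38) and its protein holds 12 fingers by the pattern above. Of its 31-base words 6.50% also occur in transcripts of other genes. On the FPKM reading its values stand for about 50.7 fragments in q2 and 94.4 in q1.

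Zfp706 encodes a small protein with a single finger, which in mouse embryonic stem cells is known to favour the exit from self-renewal and to hold down Klf4. It had 16.1 in q2 and 29.8 in q1 in the authors' deposited table (q = 0.0204), a log2 ratio of -0.89. The gene lies on the minus strand of chromosome 15 from 36997027 to 37007773. Of the 31-base words of its transcript, 10.3% also occur in transcripts of other genes, so a part of its reads may not be its own.

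Zfp259, or Zpr1, encodes a protein that moves to the nucleus on growth factor signals and binds the translation factor eEF1A. It had 71.5 in q2 and 45.4 in q1 in the authors' deposited table (q = 0.0348), a log2 ratio of 0.65. It lies on the plus strand of chromosome 9 from 46273064 to 46282643, and none of its 31-base words occurs in another gene. Its transcript has a GC content of 51.0%, against 38.1% for Zfp930 and 43.4% for Zfp706.

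Beside these, Zfp180 had the largest log2 ratio toward q2 among the tested members (1.03) but did not pass. It had 16.2 in q2 and 7.94 in q1 in the authors' deposited table, with q = 0.0894. Zfp428, one of the most highly valued members, had 83.4 in q2 and 50.2 in q1 in the authors' deposited table (a log2 ratio of 0.73, q = 0.115). The next largest toward q2 were Zfp414 (0.66), Zfp593 (0.61), Zfp511 (0.46), Zfp710 (0.40) and Zfp64 (0.40). Toward q1, Zfp936 followed with 11.7 in q2 and 19.8 in q1 in the authors' deposited table (a log2 ratio of -0.76, q = 0.165). Then came Zfp692 (-0.73), Zfp512 (-0.57), Zfp655 (-0.56), Zfp292 (-0.55) and Zfp451 (-0.52). None of these 13 genes passed, and the q-values in the authors' deposited table ran from 0.0894 for Zfp180 to 0.797 for Zfp511. Among the untested members, which sat at a median of about 36.4 fragments in q2 and 35.0 in q1, ratios were wider, with quartiles of -0.59 and 0.12 against -0.34 and 0.06 in the tested ones. Zfp865 (1.49), Zfp688 (1.13) and Zfp668 (1.02) differed by 2-fold or more toward q2, and Zfp160 (-1.14), Zfp760 (-1.05) and Zfp770 (-1.01) toward q1. These 6 have no test.

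**Figure D2:**
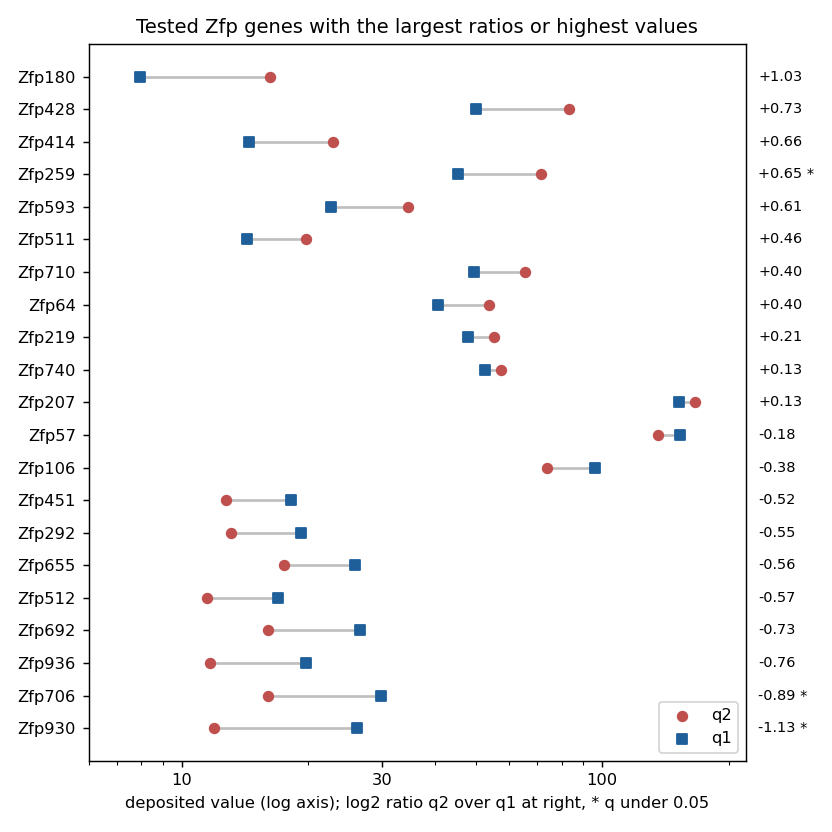
Deposited values in q2 (circles) and q1 (squares) on a log axis for the tested members with the 8 largest log2 ratios in each direction and for the 8 members with the highest mean. The log2 ratio of q2 over q1 stands at the right, with a star at the 3 members that passed. The most highly valued genes, Zfp207 and Zfp57, differ by 0.13 and -0.18.

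The members as a group leaned toward q1 by a small amount. Of the 142 genes, 43 had the higher value in q2 and 99 in q1, so that 69.7% were higher in q1, against 44.7% of the 5654 tested genes with values above 0 in both conditions. The median log2 ratio was -0.22 for all members and -0.18 for the 69 tested ones, beside 0.06 for all tested genes. Over all 8309 genes with a mean of at least 5 it was 0.02, and 47.7% of those with values above 0 in both conditions were higher in q1. The middle of the distribution, from the lower to the upper quartile, ran from -0.40 to 0.07 in the members and from -0.22 to 0.33 in all tested genes. In the untested members the median was -0.27, and it was -0.05 in the 2561 untested genes of that level with values above 0 in both conditions. These medians are descriptions, since no library values exist against which the lean of a list could be tested.

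**Figure D3:**
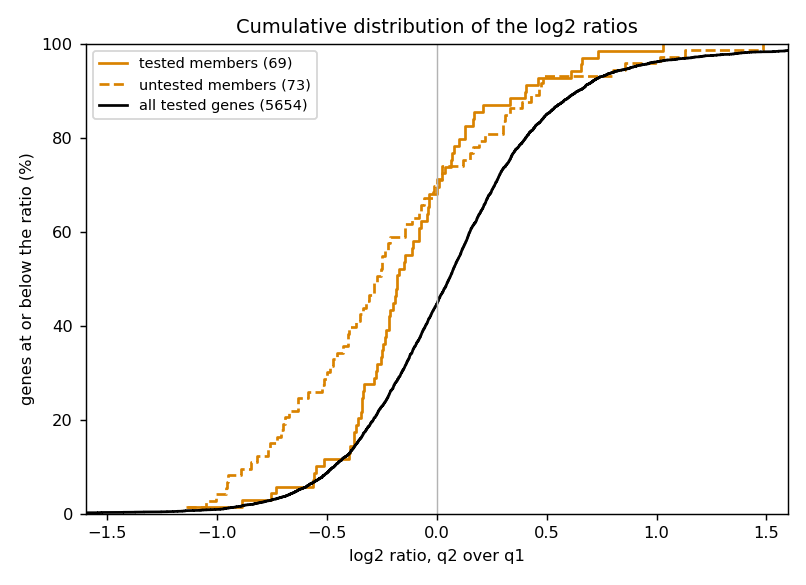
Cumulative share of genes (vertical, %) at or below each log2 ratio of q2 over q1 (horizontal), for tested members, untested members and all tested genes. The curves of the members cross 0 at 68.1% and 71.2% and that of all tested genes at 44.7%.

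The ratio moved with base composition and length, among the members and among other genes, and the part of these in the lean was not tested. Among the 5410 other tested protein-coding genes the log2 ratio had a Spearman rho of 0.47 with the GC content of the transcript and -0.41 with its length, and among the 142 members 0.50 and -0.21. Genes are not replicates and share the same libraries, so these are descriptions. The members had a median GC content of 48.0%, against 51.1% for the other genes, and a median transcript length of 3316 bases, against 2700. A trend in length and GC content, fitted to the 200 tested protein-coding genes nearest to each member, gave a median of -0.10 for the members. What was left after subtracting it had a median of -0.10, with 85 of 142 members under 0. For the 69 tested members alone the trend had a median of 0.0013, beside a median ratio of -0.18. Their remainders had a median of -0.09, with 41 under 0. For the genes that passed, the trend gave -0.37 for Zfp930, -0.25 for Zfp706 and 0.05 for Zfp259, so the remainders were -0.76, -0.64 and 0.60. For Zfp428, with a GC content of 64.4%, the trend gave 0.60 beside its own ratio of 0.73.

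The gap to other genes of like base composition was widest, among 4 strata, at a GC content of 50% to 55%. In transcripts with a GC content of 50% to 55%, the median log2 ratio was -0.15 for 25 members, -0.17 for the 10 tested among them and 0.11 for the other tested protein-coding genes. At 55% or more the medians were 0.12 for 28 members and 0.26 for the others, and for the 18 tested members of that stratum 0.04. Below 45% they were -0.41 for 52 members, -0.30 for the 20 tested among them and -0.26 for the others. From 45% to 50% they were -0.12 for 37 members, -0.18 for the 21 tested among them and -0.07 for the others. Whether these gaps exceed the error between libraries was not tested.

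**Figure D4:**
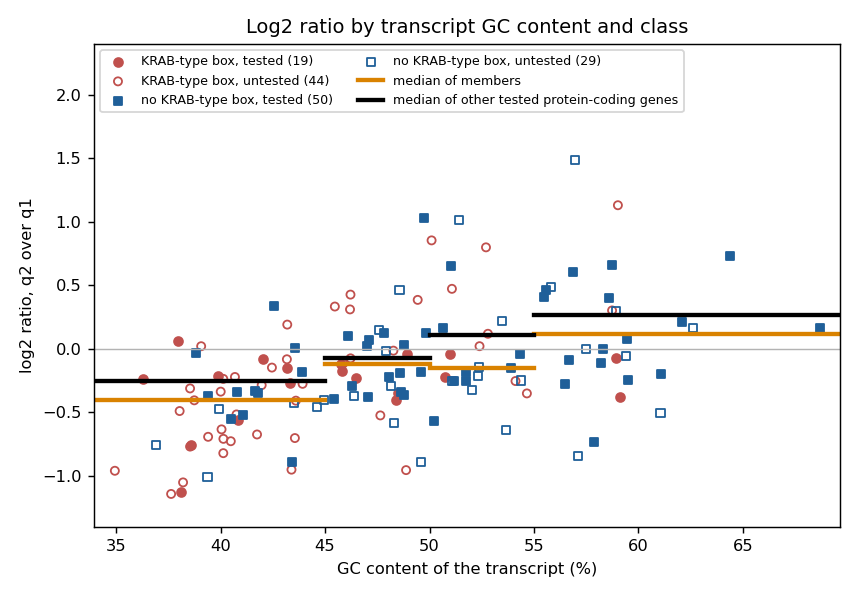
Log2 ratio of q2 over q1 (vertical) against the GC content of the representative transcript (horizontal, %) for the 142 members, coloured by class and filled where the authors tested the gene. Horizontal bars give the median in 4 strata of GC content for the members and for the other tested protein-coding genes, -0.41 and -0.26 in the lowest stratum and 0.12 and 0.26 in the highest.

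The KRAB class differed from the rest of the members in level and composition. The 63 members with a KRAB-type box had a median value of 8.52 in q2 and 9.26 in q1, and 19 of them were tested. The 79 without had 15.5 in q2 and 16.3 in q1, and 50 were tested. The median number of fingers was 12 with the box and 7 without, and the median GC content 43.4% and 50.2%. Over all members, q1 had the larger value for 49 of the 63 with the box and 50 of the 79 without. Under a GC content of 45% that share was 91.4% with the box and 88.2% without. From 45% to 50% it was 73.3% and 59.1%, from 50% to 55% 44.4% and 75%, and at 55% or more 50% and 41.7%. For the 19 tested KRAB genes q1 exceeded q2 in 18 and fell below it in 1. The q1 share was 44.7% for all tested genes, whatever their GC content. The 19 had a median GC content of 45.8%, with 9 below 45%, 6 from 45% to 50%, and 2 in each higher stratum. Among the other tested protein-coding genes the q1 share was 76.8% below 45% and 57.3% from 45% to 50%. It was 36.4% from 50% to 55% and lower still at 55% or more. Whether the KRAB genes exceed genes of like GC content was not tested. Of these 19, Zfp930 passed. Among the 50 tested members without a box, q2 had the higher value in 21 and q1 in 29; Zfp706 and Zfp259 passed. The median log2 ratio was -0.24 with the box and -0.18 without, or -0.060 and -0.13 once that trend was subtracted, so the order of the classes turned with that step. Among tested members it did not: the medians were -0.22 with the box and -0.13 without, and -0.10 and -0.065 after the subtraction.

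Genes with a known part in imprinting and retroelement silencing were expressed at levels from low to among the highest of the family. Zfp57, which protects methylation at imprinted regions, was the second most highly valued member, with 136 in q2 and 153 in q1 in the authors' deposited table (a log2 ratio of -0.18, q = 0.637). Zfp445, which shares that task, had 25.4 in q2 and 30.7 in q1 in the authors' deposited table (-0.27, q = 0.461). Zfp568, which represses a placental transcript of Igf2, had 38.1 in q2 and 44.3 in q1 in the authors' deposited table (-0.22, q = 0.514). Zfp809, which recognises the primer binding site of murine leukemia virus-related retroviruses, had a log2 ratio of -0.12, and Zfp819 -0.04. Zfp932, a repressor of endogenous retroviruses, was untested at 4.47 in q2 and 7.61 in q1 in the authors' deposited table, and 67.3% of its 31-base words occur in Gm15446. All 6 members of this list had the higher value in q1, with a median log2 ratio of -0.20. So did 49 of the 63 members with a KRAB-type box, whose median was -0.24. Of the 5 tested in this list 0 passed in Cuffdiff and 0 reached an unadjusted p under 0.05, where 4.25% and 18.8% of all tested genes did. Zfp708, with 2.04 in q2 and 1.67 in q1 in the authors' deposited table, was under the level threshold.

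In a list drawn up here of genes tied to silencing by KRAB proteins, 2 passed, and Trim28 and Setdb1 did not. Of 26 listed co-repressor genes 24 were in the table and 21 were tested. Cbx5 and Atrx passed, both higher in q1. Of all tested genes 4.25% passed in either direction and 1.94% as higher in q1. An unadjusted p under 0.05 was reached by 6 of the 21, against 18.8% of all tested genes. Besides Cbx5 and Atrx these were Chaf1a (a log2 ratio of -0.71), Mphosph8 (-0.47) and Smarcad1 (-0.43), higher in q1. The methyltransferase gene Ehmt2 (G9a) was the only one of them higher in q2, with 0.38. Chaf1a, Mphosph8, Smarcad1 and Ehmt2 did not pass. Cbx1 and Cbx3, the other HP1 genes, were higher in q2, with 0.11 and, untested, 1.25. Cbx5 encodes HP1 alpha and had 44.2 in q2 and 69.3 in q1 in the authors' deposited table (a log2 ratio of -0.65, q = 0.00367). Atrx, a chromatin remodeller that acts with Daxx, had 16.6 in q2 and 28.1 in q1 in the authors' deposited table (-0.75, q = 0.00802). Trim28 itself had 751 in q2 and 735 in q1 in the authors' deposited table (0.03, q = 0.932), and Setdb1 had a log2 ratio of 0.09. The median log2 ratio of the 21 tested genes was -0.02. The length and GC trend gave -0.34 for Cbx5 and -0.42 for Atrx.

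The list of RNA and ribosome factors held the most highly valued member, Zfp207, although the role given for it here is at kinetochores. Zfp207 (BuGZ), which binds Bub3 at kinetochores, had 166 in q2 and 153 in q1 in the authors' deposited table (a log2 ratio of 0.13, q = 0.731). Zfp106, an RNA-binding protein needed in motor neurons, had 74.0 in q2 and 96.3 in q1 in the authors' deposited table (-0.38, q = 0.162). Zfp598, the ubiquitin ligase that marks collided ribosomes, had a log2 ratio of 0.08. Zfp622 and Zfp593, whose yeast relatives Rei1 and Bud20 act on the large ribosomal subunit, had -0.25 and 0.61. Zfp593 had 34.5 in q2 and 22.6 in q1 in the authors' deposited table (q = 0.245), but 69.7% of its 31-base words also occur in the transcript E130218I03Rik. Zfp830 had -0.19, and Zfp326 (-0.43) and Zfp346 (-0.14) were untested. Of the 8 members of this list 6 were tested and 0 passed the Cuffdiff test, while for Zfp106 and Zfp593 the unadjusted p lay under 0.05. Of all tested genes 4.25% and 18.8% met these thresholds.

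Among regulators of stem cells and development 1 of 7 tested members, Zfp706, passed, beside 4.25% of all tested genes. Zfp462, which is needed for heterochromatin at lineage genes in mouse embryonic stem cells, had 23.4 in q2 and 27.3 in q1 in the authors' deposited table (a log2 ratio of -0.22, q = 0.517). Zfp296, a partner of Klf4 in reprogramming, had 25.0 in q2 and 29.7 in q1 in the authors' deposited table (-0.25, q = 0.731). Zfp217, a partner of Kdm1a and the CoREST complex, had -0.25, Zfp423, a cofactor of BMP-activated Smads, -0.08, and Zfp219 0.21. Zfp335 was untested (-0.06). With Zfp57 in this list too, 8 were members and 7 were tested, 1 had the higher value in q2 and 7 in q1, and the median was -0.20. Of all members 69.7% were higher in q1, with a median of -0.22. Zfp521 and Zfp703, which act in later development, were under the threshold, with Zfp703 at 0 in both conditions.

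Adaptors of chromatin complexes held 8 members, 6 of them tested, and 0 passed the Cuffdiff test or had an unadjusted p under 0.05, beside 4.25% and 18.8% of all tested genes. Zfp532 and Zfp687, which in human cells join a complex with ZMYND8, went opposite ways in sign, at 0.17 and -0.28. Zfp451, a SUMO ligase in human cells, had 12.7 in q2 and 18.2 in q1 in the authors' deposited table (a log2 ratio of -0.52, q = 0.333). Zfp644, a partner of the methyltransferase G9a, had -0.35, the POZ domain protein Zfp131 -0.37 and Zfp64 0.40. Zfp148 (-0.47) and Zfp609 (-0.21) were untested, and Zfp516, Zfp592 and Zfp827 were under the level threshold.

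The members are spread over 20 chromosomes but not evenly. Chromosome 7 held 42, chromosome 17 held 13 and chromosome 13 held 10. The members of chromosome 7 had a median log2 ratio of -0.03 and those elsewhere -0.25, and all tested genes of chromosome 7 had 0.20. On chromosome 17 the members had -0.34 and all tested genes 0.15. These members include untested ones, with 16 of the 42 tested on chromosome 7 and 4 of the 13 on chromosome 17. The median GC content of the members was 49.3% on chromosome 7 and 40.7% on chromosome 17. For all tested genes there it was 54.2% and 54.7%. With the length and GC trend subtracted, the members had a median of -0.054 on chromosome 7 and -0.028 on chromosome 17. In 26 pairs of neighbouring members the starts lay within 100 kb, 18 of them on chromosome 7, and both genes had the higher value in q2 in 4 pairs and in q1 in 12. The longest run was 10 genes on chromosome 7 between 29768552 and 30169750, of which 8 hold a KRAB-type box and 8 were higher in q1. Levels differed within it: in the authors' deposited table the untested Zfp82 had 4.18 in q2 and 8.10 in q1, Zfp146 had 29.5 and 28.8, and Zfp568, given above, was the highest. Of the words of Zfp82, 94.5% also occur in the transcript Gm26920, and its value is uncertain for that reason.

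**Figure D5:**
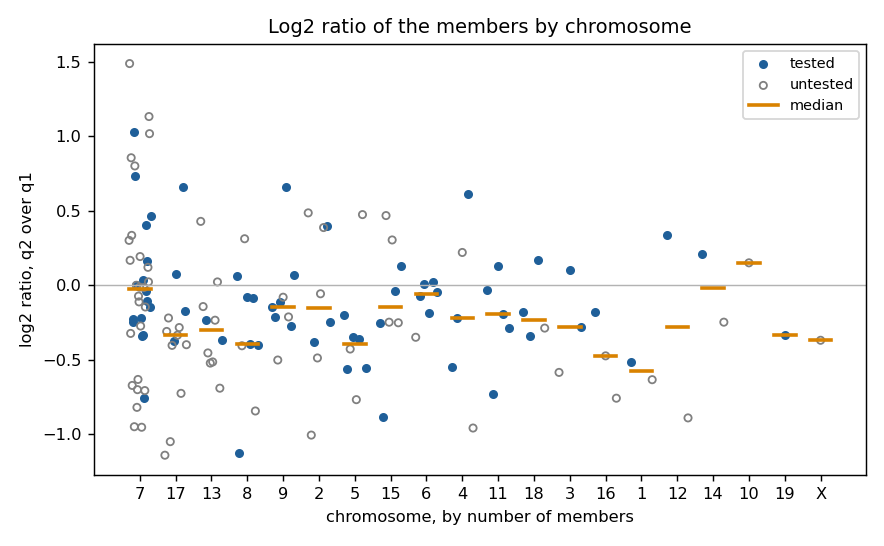
Log2 ratio of q2 over q1 (vertical) for each member by chromosome (horizontal, ordered by number of members), filled where the authors tested the gene, with a bar at the median of each chromosome. Chromosome 7, with 42 members, has a median of -0.03 and spans the widest range, and chromosome 17, with 13, has -0.34.

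Shared sequence limits single values in a part of the family. In 52 members over 5% of the 31-base words of the transcript occur in another gene on either strand, and in 9 members over 50% do. Besides Zfp82, Zfp932 and Zfp593 these were Zfp534 (85.2%), Zfp808 (69.0%), Zfp59 (65.1%), Zfp747 (55.5%), Zfp345 (53.0%) and Zfp524 (50.3%). Members named above with a share between 5% and 50% included Zfp532 (37.5%), Zfp865 (36.6%), Zfp936 (34.3%), Zfp414 (26.2%) and Zfp106 (26.2%). The median log2 ratio was -0.24 in the 52 members with over 5% shared and -0.19 in the other 90.

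Zinc finger genes with other names and a mean of at least 5 were set beside the members, with no test of the difference. Of 49 genes named Zbtb, Zscan, Zkscan or Zfp with a letter suffix, 21 were tested and 0 passed the Cuffdiff test, while 7 had an unadjusted p under 0.05, against 4.25% and 18.8% of all tested genes. Their median log2 ratio was -0.22, with 16 higher in q2 and 33 in q1. For the 21 tested it was -0.04, with 10 higher in q2 and 11 in q1, whereas the tested members had -0.18. Zbtb genes pair fingers with a BTB domain, and the 10 tested had a median of 0.26 and a median GC content of 55.7%. All 25 Zbtb genes of that level, however, had -0.29 and 51.1%, with 10 higher in q2 and 15 in q1. The 6 tested Zfp genes with a letter suffix had -0.24 and 47.4%, and all 12 had -0.24 and 41.7%. The 5 genes left out by the rule ranged from -0.19 for Zfp36 to 0.41 for Zfp473, and none of the 4 that were tested passed. Zfp42 (Rex1), a marker of naive stem cells, had 444 in q2 and 364 in q1 in the authors' deposited table (a log2 ratio of 0.29, q = 0.312).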

How the data were processed

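RNA of 4 E14 libraries was sequenced. TopHat, Cuffdiff, mm10 and GRCm38.p4 are named per the submitters' processing notes. Tool versions, options, annotation and depth are not stated. The authors deposited 1 table with an expression value (called value per the file headers, which name no unit) for each gene in each of 2 conditions, and a Cuffdiff p-value and q-value. Samples were grouped by title, but no label or header ties a condition to an esiRNA.

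The log2 ratio, q2 over q1, was computed here from the deposited values with no pseudocount. Members were counted as passing at a deposited q under 0.05. Genes were matched by symbol to GENCODE M21 (GRCm38), 2 members through an older symbol, with 1 representative transcript per gene. That transcript may differ from the one the authors used. Fingers were counted in translated coding sequence as 2 cysteines with 2 to 4 residues between them, 12 residues, and 2 histidines with 3 to 5 between them. The KRAB-type box was found with HMMER 3.4 at an E-value of 1e-05, from a profile built on 194 zinc finger genes. Divergent boxes can be missed. The trend removal and the word count were tested on simulated data. Steps of value times length lay within 0.15 of a whole number for 68.4% of low genes in q2 and 68.7% in q1, with the step fitted to the same values. Fragment numbers use the transcript length above.

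The members and gene lists were chosen with earlier results of these data known. Named genes are Pnldc1, members that passed, the 8 highest means, the 8 largest log2 ratios in each direction among tested members, genes at the level threshold, those left out, the role lists, neighbours within 100 kb and co-repressors that passed; other genes were chosen after their values were seen. Python 3.11.15 was used.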

Additional observations from a re-analysis of the deposited data

How the results depend on the processing

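The median log2 ratio of the members stayed negative in each alternative run, and was -0.10 with the length and GC trend removed, and the median of members with a KRAB-type box was then -0.060. Recentring on all tested genes gave -0.27 and on the upper quartiles -0.25. Of the 69 tested members, 0 passed at a q under 0.01, 4 at a q under 0.1 and 12 at an unadjusted p under 0.05. Of all tested genes 1.87%, 7.36% and 18.8% met these thresholds. At the unadjusted p the other zinc finger genes had 7 of 21 tested and the co-repressors 6 of 21. The number of members higher in q1 was 99, 59 at a mean of at least 10, 190 with no threshold, 47 among tested members and 64 without members that share over 5% of words, which follows from fewer or more genes being counted; the last pair was chosen after seeing the data. No sign of a named member that passed turned on recentring. No paired analysis was possible because the table holds no columns of single libraries, and for the same reason no replicate could be left out. If the values are FPKM, many ratios rest on few fragments, and how far depth limits them was not tested. The median estimate for untested members was 36.4 fragments in q2 and 35.0 in q1, and for tested members 91.2 and 94.1, with overlap between them.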
